A study of Mus musculus with 9 samples.

Results

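CTCF occupancy was compared between neural stem cells (NSCs) without SMCHD1 and NSCs that carry an intact, GFP-tagged SMCHD1. For every peak on chromosomes 1 to 19 of the merged CTCF ChIP-seq peak set, the value of the GFP-tagged control was subtracted from that of the null. The set holds 225769 peaks, of which 217130 are autosomal and were all kept. All lines were primary female NSCs from the cortex of embryos at day 14.5. The 3 control libraries come from *Smchd1* GFP/GFP lines, in which the endogenous gene is fused to GFP. The 2 null libraries come from *Smchd1* del/del lines, made in culture by infecting floxed NSCs with a Cre retrovirus that also carries puromycin resistance, followed by drug selection. The deletion, the exposure to Cre and drug, and the missing GFP tag separate the groups. So do the floxed and the tagged mouse lines from which the cells came, and these effects cannot be told apart. The 3 libraries of MommeD43-GFP, a tagged line with a point mutation in SMCHD1, are given beside the others where useful, and the values of the 1 input library are not analysed here. Each genotype has 1 pooled value per peak, so no difference could be set against the spread between lines and no test was possible.

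CTCF is a zinc finger protein that binds a long, GC-rich motif, halts the loop-extruding cohesin ring and so sets the borders of chromatin domains. SMCHD1 is a non-canonical SMC protein that silences the inactive X chromosome, imprinted genes and clustered gene families, and is known to limit CTCF binding and short-range chromatin contacts on the inactive X. On autosomes the question is at which sites CTCF occupancy differs once SMCHD1 is gone. A ChIP-seq peak reports binding and not expression, so neither the loss of *Smchd1* mRNA nor the NSC markers could be checked with these values.

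Sites with the CTCF motif are shown first, because the largest differences fell on peaks both with and without it. The motif searched was CCANNAGNNGGC on both strands, and a match is a description of the letters and not proof of a site. Only exact matches were counted, so a peak scored as without the motif may still hold a CTCF site. It lay in 36063 autosomal peaks (16.6%), in 59.9% of the top 10% of peaks by control level and in 3.64% of the bottom 10%. Each line below gives 30 bases of GRCm38.p6 in the direction of the motif, with the motif in capitals. The first group are the 4 motif sites among the 10 peaks raised most in the null among those of at least median level, all of them weak in the control.
intergenic, chr6:104028641-104028670, plus strand: caggacttaCCACCAGGTGGCgcttcagga
intron of *Gm15939*, chr10:33653427-33653456, minus strand: ctgtagaggCCAGCAGAGGGCagaagattc
near *Gm18349*, chr7:47830303-47830332, plus strand: actgtctcaCCACTAGGAGGCacacaaagc
intron of *Pard3b*, chr1:61771416-61771445, minus strand: ctgtgccatCCACCAGAGGGCaacagagtg

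The second group are 3 of the 5 highest differences among peaks that hold the motif and lie in the top 10% by control level.
intron of *Gm12239*, chr11:55991657-55991686, plus strand: cactcacccCCATCAGGAGGCtggctcatt
near *Gm8748*, chr8:104032367-104032396, plus strand: cactaacttCCAGCAGGTGGCagtaaagag
near *Adamts8*, chr9:30937220-30937249, minus strand: tgcatgtgaCCAGAAGGTGGCgctgctctg

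The third group are 3 of the 5 lowest differences among the same motif peaks.
within *Kif7*, chr7:79710884-79710913, plus strand: atttggagaCCAGCAGGTGGCcagcggcgg
promoter of *Gm26917*, chr17:39849007-39849036, minus strand: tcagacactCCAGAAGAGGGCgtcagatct
near *Gm27204*, chr9:72779512-72779541, plus strand: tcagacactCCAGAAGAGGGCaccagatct
The sites in the *Gm26917* and *Gm27204* peaks matched at 28 of 30 bases and were identical over the first 21, and all 30 bases of each were marked as repeat sequence in the genome.

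Each value is the log2 of the reads over the whole peak per M reads sequenced, taken by the authors as the mean of the libraries in each genotype. Across autosomal peaks the median was -0.46 in control and -0.52 in the null. The median difference of null less control was -0.04, with quartiles of -0.32 and 0.27, and 46.5% of peaks were higher in the null. Summed over autosomal peaks, the pooled values came to 33.8% of reads in control and 34% in the null. These are sums of means of logs, so they only approximate the share of reads in peaks. The lowest values step in whole reads, which puts the library size at a geometric mean of 41.7 M reads in control and 50 M in the null, and the median peak at 30.3 and 34.9 reads per library. The counting error of a difference had a median of 0.23, and all errors given with a difference below are of this kind and cover counting only. The SD of the differences was 0.50.

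A peak was called raised or lowered in the null when its value was 2-fold or more above or below control. By that rule 6905 autosomal peaks (3.18%) were raised and 3947 (1.82%) were lowered. Weak peaks vary most by counting, so the 108565 peaks whose mean of null and control reached the autosomal median, here called the better occupied peaks, were also counted apart. A peak could reach that level through a high value in either genotype. Of these, 1437 (1.32%) were raised and 318 (0.293%) lowered, and their differences had an SD of 0.39 and a median counting error of 0.17. The excess of raised peaks at this level depends on which value sets the level. With the level read from MommeD43-GFP, which shares no library with the difference, 1633 peaks were raised and 444 lowered. With the level read from the control itself, 819 were raised and 1137 lowered, so that the direction of the excess turned. Differences of 4-fold or more were seen at 561 raised and 76 lowered peaks of all levels.

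**Figure D1:**
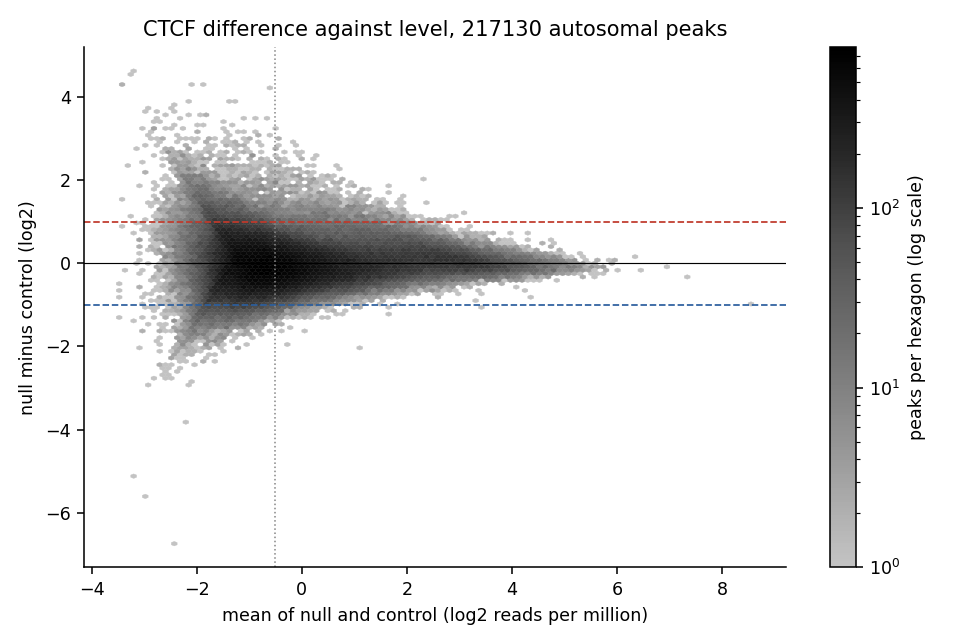
Difference of null less control (log2, vertical) against the mean of both (log2 reads per M, horizontal) for 217130 autosomal peaks, with darker hexagons holding more peaks on a log scale. Dashed lines mark 2-fold higher (red) and 2-fold lower (blue), the dotted line the median level. The cloud narrows as the level rises, and more peaks lie above the red line than below the blue line.

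The strongest CTCF peaks differed least. In the top 10% by control level the median was 2.57 in control and 2.66 in the null, and of 21713 peaks 12 were raised and 5 lowered. In the bottom 10% the median was -1.82 in control and -1.26 in the null, and 4918 peaks (22.6%) were raised against 131 (0.603%) lowered. The control level shares its error with the difference, so the same bins were also formed on MommeD43-GFP. In its bottom 10% of peaks 10.5% were raised and 6.17% lowered, with a median difference of -0.05 in place of 0.59. In its top 10% these shares were 0.272% and 0.0184%, with a median of 0.03. By MommeD43-GFP the lowered share fell from bin to bin, while the raised share fell to 1.56% in bin 6, stood at 2.15% in bin 8 and then fell again. By control the lowered share was highest in bin 2, at 3.18%. The large median shift of weak peaks was seen with the control's ordering and not with that of MommeD43-GFP.

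**Figure D2:**
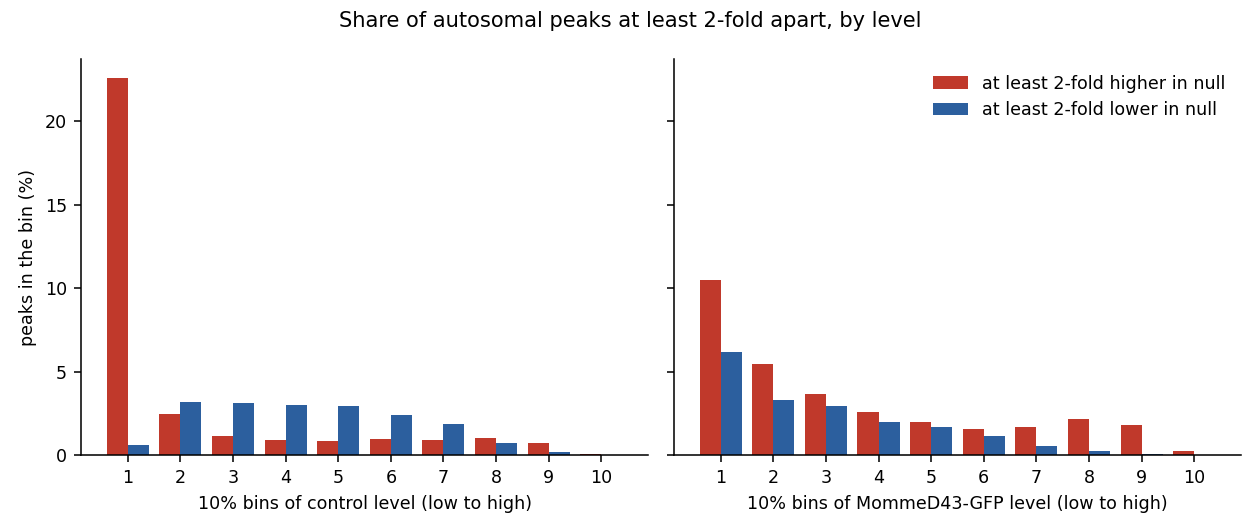
Percent of autosomal peaks at least 2-fold higher (red) or lower (blue) in the null, in 10% bins of the control level (left) and of the MommeD43-GFP level (right). The lowest bin holds 22.6% raised peaks on the left and 10.5% on the right, and the highest under 1% on both sides.

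Short peaks differed more often than long ones. Values are not divided by length, so long peaks also hold more reads. Of the 58233 peaks under 500 bp, 6.09% were raised and 3.15% lowered in the null. From 1000 to under 2000 bp the shares were 1.85% and 0.437%, and from 2000 to under 5000 bp 0.296% and 0.0558%. Among the 5170 peaks of 5000 bp or more, 1 was raised and 0 were lowered, and their median difference was -0.06.

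Raised and lowered peaks differed in the motif. From 500 to under 1000 bp the motif lay in 9.13% of all peaks, 22.8% of the raised and 3.34% of the lowered. From 1000 to under 2000 bp it lay in 24.0% of all peaks, 40.1% of the raised and 5.61% of the lowered. Among better occupied peaks, 585 of 31524 with a motif (1.86%) were raised and 18 (0.0571%) lowered. Of the 77041 without a motif, 852 (1.11%) were raised and 300 (0.389%) lowered. Lowered CTCF was thus found mainly at peaks in which these letters were not present.

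Base composition went with the direction of the difference. In the bottom 10% of peaks by GC content, with a median of 41.3% GC, the median difference was 0.21 and 11.4% were raised against 2.75% lowered. In the top 10%, with a median of 53% GC, the median difference was -0.16 and 0.364% were raised against 1.81% lowered. MommeD43-GFP less control, which shares the 3 control libraries, had medians of 0.20 and -0.12 in the same bins. The part of base composition of the libraries in these differences was not tested. After centring the differences within 20 bins of GC, 955 better occupied peaks were raised, against 1437 before.

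Motif and GC were then crossed among better occupied peaks. At 42% GC or less, 344 of 3545 motif peaks (9.70%) and 406 of 2799 peaks without a motif (14.5%) were raised. From 45 to 48% GC these shares were 0.558% and 0.549%, and above 51% they were 0.0201% and 0.107%. The larger raised share of motif peaks over all GC contents was therefore turned or nearly absent within these bands. Lowered peaks showed another pattern, because without a motif their share stayed between 0.179% and 0.478% in every band and with a motif it was at most 0.103%.

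**Figure D3:**
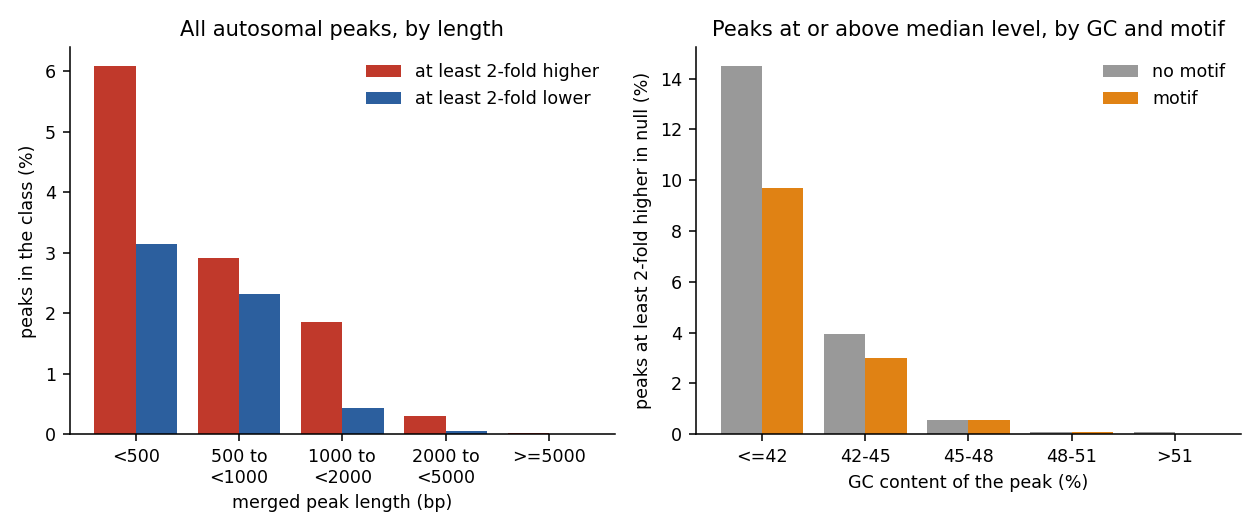
Left, percent of autosomal peaks at least 2-fold higher (red) or lower (blue) in the null by length of the merged peak in bp. Right, percent at least 2-fold higher among better occupied peaks, by GC content in percent, without (grey) and with (orange) the motif. Shares fall from 6.09% raised under 500 bp to 1 peak at 5000 bp or more, and from 14.5% and 9.70% in the most AT-rich band to about 0.1% or less above 48% GC.

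The median difference varied little with position in the genome, while the shares of raised and lowered peaks varied more. It was -0.05 at promoters, within 1 kb of any annotated transcript start, -0.07 in exons, -0.02 in introns and -0.04 between genes. Promoters had 1.81% raised and 1.09% lowered peaks, introns 3.71% and 1.73%, and intergenic sequence 3.51% and 2.34%. With distance from a start the shares rose from 2.03% raised and 1.32% lowered within 1 kb to 4.34% and 2.98% beyond 100 kb, while the median control level fell from 0.14 to -0.87. The medians of the 19 autosomes lay between -0.05 and -0.02. Chromosome 11, with a median control level of -0.14, had the lowest raised share (2.26%), and chromosome 12, at -0.53, the highest (3.99%). In the 20% of peaks richest in repeats 3.17% were lowered, against 1.35% to 1.63% in the other 20% bins.

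The 10 better occupied peaks raised most lay in introns, in 1 exon and between genes. All 10 were weak in control, from -2.06 to -1.30, and reached the median level of -0.51 only through the null. They were thus admitted by the same values that make up the difference. The highest difference was in an exon of *Edem3*, whose product trims mannose from misfolded glycoproteins (chr1:151820251-151821000). Its value was -2.06 in control, 1.16 in the null and 0.11 in MommeD43-GFP, a difference of 3.22 ± 0.28 for the null, 9.34-fold. It held about 9.97 reads per control library and 112 per null library. The intergenic site on chromosome 6 shown above followed (chr6:104028301-104029050), at -1.95 in control, 1.09 in the null and 0.35 in MommeD43-GFP. An intron of *Psd3*, an exchange factor for the small GTPase ARF6, rose from -1.95 to 1.08 (chr8:67916851-67917750, 3.03 ± 0.27), with -0.37 in MommeD43-GFP. The intron of *Gm15939*, a non-coding gene, rose from -1.63 to 1.25 (2.88 ± 0.25). An intron of *Net1*, an exchange factor for RhoA, rose from -1.48 to 1.35 (2.83 ± 0.23). Introns of *Cntnap5a*, a contactin-associated protein of neurons, and *Pard3b*, a cell polarity protein, went from -1.30 to 1.40 and from -1.71 to 0.95. An intergenic peak on chromosome 12 (chr12:21950851-21951900) stood at -1.84 in control, 0.91 in the null and -5.77, or 0 reads, in MommeD43-GFP.

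The 10 better occupied peaks lowered most had smaller differences. Apart from *Depdc1b*, they lay below the median level in the null and reached it only through control. The promoter of *Depdc1b*, a DEP domain protein of dividing cells, fell from 2.18 in control to 0.12 in the null (chr13:108315601-108317100), by 4.17-fold, a difference of -2.06 ± 0.15. MommeD43-GFP stood at 2.17 there, at the control level. A peak near *Zfp365*, a zinc finger gene, fell from 0.71 to -1.22 (-1.93 ± 0.24), with 1.02 in MommeD43-GFP. Within *Lmo4*, a LIM-domain transcription cofactor of the developing cortex, a peak at the start of the intronic transcript *Gm43445* fell from 0.88 to -0.77 (-1.65 ± 0.21). An intron of *Pde8b*, which degrades cyclic AMP, fell from 0.37 to -1.11 (-1.48 ± 0.24). Apart from *Depdc1b* and the peak near *Zfp365*, MommeD43-GFP also lay below control at these 10 peaks, with differences from -0.20 to -1.05. None of these 10 peaks held an exact match to the motif, whereas 4 of the 10 raised peaks did. Of all 108565 better occupied peaks 31524 held it.

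**Figure D4:**
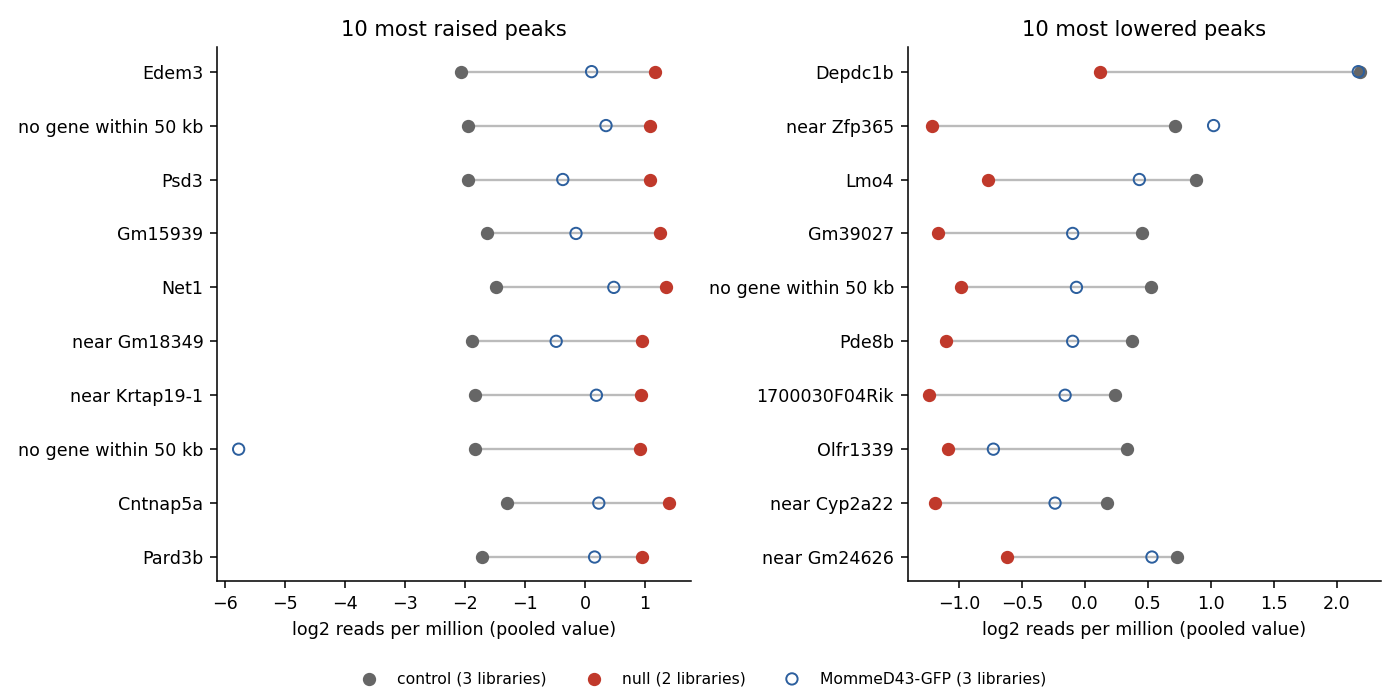
Pooled log2 reads per M in control (grey), null (red) and MommeD43-GFP (open blue) at the 10 peaks raised most (left) and lowered most (right) in the null among better occupied peaks, named by the gene overlapped or the nearest start within 50 kb. *Edem3* goes from -2.06 to 1.16 and *Depdc1b* from 2.18 to 0.12, and the 2 panels have different scales.

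Sequence from the better occupied peak lowered most and from one of the raised peaks is shown as an example of each direction. Both were chosen as examples after their values were seen. CpG dinucleotides are in capitals in both stretches. The first is the 200 bases before the annotated start of *Depdc1b*, which also overlaps an exon of the antisense transcript *Gm2822*, and the second the central 200 bases of the raised *Psd3* intron peak.
*Depdc1b*, chr13:108316132-108316331, plus strand: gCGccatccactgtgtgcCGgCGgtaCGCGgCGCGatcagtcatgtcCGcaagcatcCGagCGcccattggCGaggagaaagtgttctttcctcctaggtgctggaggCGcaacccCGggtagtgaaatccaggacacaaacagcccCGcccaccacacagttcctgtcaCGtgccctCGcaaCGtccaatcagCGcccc
*Psd3*, chr8:67917201-67917400, plus strand: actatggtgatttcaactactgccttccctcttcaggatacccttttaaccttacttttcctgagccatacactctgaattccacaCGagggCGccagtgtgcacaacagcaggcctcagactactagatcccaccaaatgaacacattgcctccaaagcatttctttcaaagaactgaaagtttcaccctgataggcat
The *Depdc1b* stretch was 63.0% GC with 18 CpGs, and the *Psd3* stretch 45.5% GC with 2. Over whole peaks, GC content was 34.7% to 47.6% in the 10 raised and 46.3% to 57.1% in the 10 lowered. CpG density overlapped, at 0 to 12 per kb in the raised and 2.86 to 63.3 in the lowered, against a median of 11.1 over all autosomal peaks, and among the lowered it was highest at *Lmo4*, *Depdc1b* and near *Zfp365*.

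Strong motif peaks were then taken apart, because they are the sites where CTCF is bound best. Of 13009 motif peaks in the top 10% by control level, 6 were raised and 1 was lowered, and the median difference was 0.02. The *Gm12239* intron peak, in a non-coding gene, rose from 2.47 to 3.70 (1.23 ± 0.07), with 3.08 in MommeD43-GFP. Peaks near *Gm8748*, near *Tmem132c*, near the metalloprotease gene *Adamts8* and near the glutathione peroxidase gene *Gpx6* rose by 1.08, 1.08, 1.06 and 1.04 log2. The peak within *Kif7*, a kinesin of hedgehog signalling, and at the start of the antisense transcript *9330171B17Rik* fell from 2.13 to 1.10 (-1.03 ± 0.12). The tallest autosomal peak of the control, over *Gm26917* (chr17:39842401-39849150), stood at 9.09 in control, 8.12 in the null and 8.55 in MommeD43-GFP. The annotation also places a ribosomal RNA gene there, a kind of gene that is repeated in the genome, so its reads cannot be tied to this copy. The peak near *Chga*, which encodes chromogranin A, went from 2.05 to 1.14 (-0.90 ± 0.12), short of 2-fold.

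Promoters of protein-coding genes held 14606 of the better occupied peaks. Any annotated transcript start counts here, also one inside a gene, so a named peak need not lie at the gene's main promoter. Of these 83 (0.568%) were raised and 22 (0.151%) lowered, against 1.32% and 0.293% of all better occupied peaks. The median control level of these promoter peaks was 1.49. The largest rises were at *Ica1*, an autoantigen of secretory vesicles (-1.12 to 1.01, 2.13 ± 0.22), and *Pum2*, an RNA-binding repressor of translation (-1.18 to 0.94, 2.12 ± 0.22). *Arpc5*, a subunit of the actin-nucleating complex, rose from -0.90 to 1.14. *Calu*, a calcium-binding protein of the secretory pathway, rose from -1.03 to 0.96. *Sec24c*, a coat protein of vesicles leaving the endoplasmic reticulum, rose from -1.32 to 0.67, *Scn3a*, a neuronal sodium channel, from -1.47 to 0.46, and *Aff4*, the scaffold of the super elongation complex, from -0.93 to 0.80. The promoter peak of *Cwf19l2* had the highest control value among the 10 highest, and it rose from 1.15 to 2.73 (1.58 ± 0.10). All of these named rises had GC contents between 37.4% and 43.0%. Apart from *Cwf19l2*, they lay below the median level in control and reached it only through the null. MommeD43-GFP less control, which shares the control libraries, ran from 0.58 to 1.64 over the 10 highest promoter peaks.

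Below *Depdc1b*, the lowered promoters included *Pdgfra*, the receptor that marks oligodendrocyte precursors. Its peak (chr5:75149551-75151950) fell from 2.28 in control to 1.02 in the null (-1.26 ± 0.12), and MommeD43-GFP lay 0.01 above control. *Spag1*, needed to assemble cilia, fell from 1.16 to -0.12, with 1.01 in MommeD43-GFP. *Lhb*, the beta chain of luteinizing hormone, fell from 1.23 to 0.06, and the olfactory receptor gene *Olfr1339* from 0.33 to -1.09. *Scrn1*, *Arap1* and *Aldh3a2* fell by 1.18, 1.13 and 1.12 log2. MommeD43-GFP less control was -0.42 at *Lhb*, -1.05 at *Olfr1339*, -0.36 at *Scrn1*, -0.35 at *Arap1* and -0.72 at *Aldh3a2*.

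At 3 autosomal peaks the null had 0 reads in both libraries, and all 3 were neighbours in an intron of *Wwox*, an oxidoreductase gene that spans a common fragile site (chr8:115136251-115138350, chr8:115140601-115141350 and chr8:115143451-115144350). In control the first of them stood at 0.95, about 80.6 reads per library, and in MommeD43-GFP at 0.96. With a floor of 3 reads over the null libraries the null was at least 64.5-fold lower there, and at least 21-fold and 30.3-fold lower at the others. The peaks on either side were not lowered. The one before, ending 39.5 kb before the first empty peak, went from 2.83 to 3.15, and the one after from -0.28 to -0.06. Of the other 133 peaks in *Wwox* 0 were raised and 0 lowered, and their median difference was -0.05. The peaks without reads span 8.10 kb within a gap of 60.0 kb between occupied peaks, and no input value was used there.

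**Figure D5:**
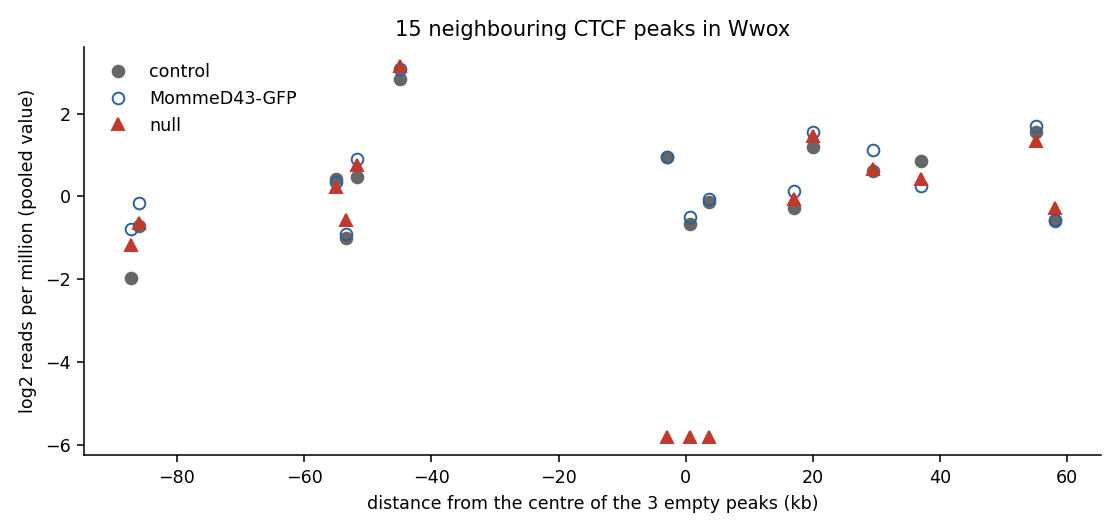
Pooled log2 reads per M (vertical) at 15 neighbouring peaks in *Wwox* against distance in kb from the centre of the 3 empty peaks, in control (grey), MommeD43-GFP (open blue) and null (red triangles). The null has 0 reads at the 3 central peaks, entered near -5.80, and stands close to control on both sides.

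The reverse, 0 reads in every control library and reads in the null, was seen at 4 autosomal peaks. They lay in introns of *L3mbtl4*, *AC154721.1* and *Birc6* on chromosome 17 and of *Cntnap2* on chromosome 6. The null stood at -0.90, -1.24, -1.27 and -0.97, about 26.7, 21.2, 20.8 and 25.5 reads per library. These values were at least 22.3-fold, 17.7-fold, 17.3-fold and 21.2-fold above a floor of 3 reads over the control libraries. MommeD43-GFP stood at -5.77 at the 3 peaks on chromosome 17 and at -5.72 in *Cntnap2*, so that both tagged genotypes had 0 or almost 0 reads. The peaks on chromosome 17 lay 2.60, 1.42 and 3.08 Mb from *Smchd1*, on both sides of it. The null and tagged lines also carry different alleles at *Smchd1*, and a link between that and these peaks was not tested. Within 5 Mb of *Smchd1*, 55 of 1401 peaks (3.93%) were raised and 22 (1.57%) lowered, against the 3.18% and 1.82% of all autosomal peaks. Differences of 4-fold or more were seen at 13 raised and 0 lowered peaks there, against 561 and 76 of all 217130.

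*Smchd1* itself (chr17:71344489-71475343, minus strand) carried 12 peaks. None was 2-fold apart, and the differences ran from -0.89 to 0.59 with a median of 0.22. The strongest with a motif, in an intron (chr17:71444251-71445900), stood at 0.58 in control, 1.18 in the null and 1.04 in MommeD43-GFP. The peak closest in value to 2-fold, at chr17:71463901-71464650, stood at -0.26, -1.15 and -0.61. Each of these peaks held at least 22.4 reads per null library.

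Genes were compared by the median over the peaks in their body. Of 7238 genes with at least 5 peaks, 4614 had no peak that was 2-fold apart, 1962 had at least 1 raised, 1207 at least 1 lowered and 545 had both. The median of the gene medians was -0.03. The highest medians belonged to the non-coding *Gm20713* (0.91 over 5 peaks), *E130120K24Rik* (0.89) and *1700023F02Rik* (0.88). In *E130120K24Rik* the differences ran from -0.80 to 1.29, and the median level was lower in the null (-0.41) than in control (-0.09). Among protein-coding genes *Sptlc3*, a subunit of the enzyme that starts sphingolipid synthesis, had 0.86 over 9 peaks, *Tbx18*, a T-box transcription factor, 0.79 over 5, and *Nptn*, a synaptic adhesion protein, 0.76 over 7. The lowest medians were at *Sult2a4*, a sulfotransferase (-0.91 over 7 peaks), *Agbl2*, a tubulin deglutamylase (-0.83 over 5), and *Ugt3a2*, a glycosyltransferase (-0.83 over 6). *Ttk*, a kinase of the spindle checkpoint, had -0.79 over 5 peaks with none of them 2-fold apart. Most of these genes rest on a few weak peaks, with control medians from -1.97 to 0.23 over the 10 highest and 10 lowest.

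Raised and lowered peaks were both most numerous in very long genes, which hold many peaks. *Rbfox1*, a splicing regulator, had 15 raised and 6 lowered of 161. *Csmd1*, a complement regulator, and *Lsamp*, an adhesion protein of the limbic system, had 14 raised and 5 lowered of 139, and 14 raised and 4 lowered of 76. *Npas3*, a transcription factor, had 13 raised and 2 lowered of 146, with a median of 0.22. *Lrmda* had 11 raised and 4 lowered of 157. *Asic2*, an acid-sensing channel, had the most lowered peaks, 8 of 257, with 8 raised. *Tenm2*, a teneurin adhesion protein, had 7 lowered and 3 raised of 150, *Dock2*, an exchange factor for Rac, 6 lowered and 1 raised of 95, and *Ryr2*, a calcium release channel, 6 lowered and 5 raised of 79. The 48 very long genes of the list together had 220 raised (5.94%) and 90 lowered (2.43%) of 3705 peaks, above the 3.18% and 1.82% of all autosomal peaks, and a median of 0.01. Their median control level of -0.88 was below the -0.46 of all peaks.

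Gene families and pathways were described by the peaks within 10 kb of their members. The *Hox* clusters had the highest median of 19 lists, 0.14 over 56 peaks, with 4 raised (7.14%) and 0 lowered against 3.18% and 1.82% of all autosomal peaks, and -0.07 in MommeD43-GFP less control. After centring within GC bins the *Hox* median was 0.25. Their highest peak, at the promoter of *9530018H14Rik* in the *Hoxa* cluster, rose from -1.65 to 0.64. The clustered protocadherins, cell-surface proteins that give neurons their identity, had a median of 0.07 over 91 peaks, with 2 raised and 1 lowered.

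The chemosensory receptor families had the lowest medians, and of all autosomal peaks 3.18% were raised and 1.82% lowered for comparison. Vomeronasal receptor genes, silent outside the vomeronasal organ, had -0.23 over 424 peaks with 24 lowered (5.66%) and 11 raised (2.59%). Olfactory receptor genes had -0.13 over 1393 peaks with 48 lowered (3.45%) and 54 raised (3.88%). Their control medians were -0.95 and -0.80, below that of all peaks. Imprinted genes had -0.08 over 425 peaks, with 12 raised (2.82%) and 8 lowered (1.88%). In that list the promoter peak of *Magel2*, a paternally expressed gene, rose from -3.11 to -0.39 with -3.07 in MommeD43-GFP. The rise was 2.72 ± 0.41, on about 4.82 reads per control library. A peak in an intron of *Airn*, the non-coding RNA that silences *Igf2r*, went from -0.80 to -2.27 with -1.04 in MommeD43-GFP. It held about 10.4 reads per null library (-1.47 ± 0.36). Zinc finger genes had -0.03 over 2080 peaks and keratins -0.08 over 234.

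Genes that act in NSCs or in CTCF biology had medians near 0, and their shares are set against the 3.18% raised and 1.82% lowered of all autosomal peaks. NSC genes had a median of -0.01 over 969 peaks with 21 raised (2.17%) and 7 lowered (0.722%). Neuronal markers had -0.04, astrocyte markers -0.01, oligodendrocyte markers -0.07, and vascular, mesenchymal and microglial markers 0.00. Genes of CTCF and cohesin had -0.02 over 129 peaks, with 5 raised (3.88%) and 3 lowered (2.33%). Polycomb genes had -0.01 over 191 peaks, with 3 raised (1.57%) and 2 lowered (1.05%). One of these stood out in size, in an intron of *Jarid2*, which guides PRC2 to chromatin, and rose from -2.46 to 0.46 (2.92 ± 0.33) on about 7.56 reads per control library. Genes of DNA methylation and SMCHD1 partners had -0.02 over 164 peaks, with 0 raised and 1 lowered, near *Suv39h2*. That peak went from -1.43 to -4.35 (-2.92 ± 0.69) on about 2.45 reads per null library. Genes of p53 and growth arrest had 0.03 over 113 peaks, interferon response genes 0.02 over 144, and ribosomal protein genes 0.04 over 238.

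Few long stretches shifted as a whole. Of 2394 windows of 1 Mb with at least 10 peaks, the central 90% had medians between -0.21 and 0.12, and 35 lay more than 0.3 from 0, 2 of them above and 33 below. The highest was on chromosome 14 at 4 to 5 Mb (0.74 over 10 peaks, 3 of them raised), and with windows shifted by 500 kb the highest median was 0.40. It was followed by chromosome 12 at 89 to 90 Mb (0.33 over 54 peaks). The lowest were chromosome 7 at 32 to 33 Mb (-0.54 over 11 peaks) and chromosome 18 at 90 to 91 Mb (-0.43 over 21 peaks). Window medians centred on -0.04 and had a Pearson correlation of -0.42 with GC content. The part of GC content in the 2 windows above and 33 below was not tested.

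Runs of consecutive peaks moved at least 1.5-fold in one direction reached 6 peaks upwards and 8 downwards. The longest lowered run covered *Sirpb1a* and *Sirpb1b*, receptors of myeloid cells (chr3:15372451-15511200), with a median of -0.71 in control and -1.60 in the null. Raised runs of 6 lay over *Fam135b* (median difference 1.17), over *Gm13255* (1.04) and over *Gm27217* and *Kcnh8* (0.78). The remaining raised run of 6 was on chromosome 12 (chr12:18513751-18616350), at -1.68 in control and 0.30 in the null, with a median of -3.87 for MommeD43-GFP less control. Lowered runs of 7 and 6 peaks also lay on chromosome 12, at chr12:20139151-20215350 (median difference -0.90) and chr12:19181401-19207200 (-1.04). The raised and lowered runs on chromosome 12 and the raised peak at chr12:21950851-21951900 all lay in 1 stretch, 18.3 to 23.0 Mb. Of its 311 peaks 34 (10.9%) were raised and 28 lowered, both shares above the 3.18% and 1.82% of all autosomal peaks. MommeD43-GFP was lowered against control at 61 of them. The limits of the stretch enclose these runs, so its shares are a description, and the cause was not tested.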

How the data were processed

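CTCF was mapped by ChIP-seq in 3 control, 2 null and 3 MommeD43-GFP libraries. Per the labels, the submitters' processing notes name Trim Galore 0.4.4, cutadapt 2.9, FastQC 0.11.8, Bowtie2 2.3.4.1, SAMtools 1.7 and R 4.2.0, and GRCm38. The authors extended reads by 180 bp, called peaks over the libraries of each genotype in SeqMonk and merged overlapping peaks. The authors deposited the log2 of reads over each peak per M reads sequenced, as a mean over libraries, so the spread between libraries is not known. Duplicate removal is not given in the sources used here.

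Differences of log2 values were taken with no test. Reads were decoded from the lowest values, whole products of counts with 0 entered as 0.9 (200 of 200 within 0.01). Peaks took their class and gene from GENCODE M21: promoter within 1 kb of any annotated transcript start, then exon, intron or intergenic. Where no gene was overlapped, the nearest start within 50 kb was taken. GC, repeats and motifs were read from GRCm38.p6. Named peaks are the 10 highest and lowest better occupied peaks, the 5 extremes each way of strong motif peaks, those over *Smchd1* and each list's extremes. Named genes (at least 5 peaks) are the 10 highest and lowest, windows and runs the first 5 each way. The 10 highest and lowest promoters, the empty peaks, and genes with most changed peaks were chosen after their values were seen. Members and lists were chosen with earlier results of these data known. The 2-fold rule was run on simulated counts with counting error only and planted 4-fold changes. That run held no spread between lines, so it cannot show how many calls such spread would make. Computation ran in Python 3.11.15 with matplotlib 3.10.9, statsmodels 0.14.6, scipy 1.17.1, pandas 2.3.3 and numpy 2.4.6.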

Additional observations from a re-analysis of the deposited data

Results flagged for a closer look

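The X chromosome was not part of the autosomal comparison. Of its 8635 peaks, 570 (6.60%) were at least 2-fold higher in the null and 240 (2.78%) at least 2-fold lower, against 3.18% and 1.82% of autosomal peaks. Their median level was -0.77 in control and -0.83 in the null, with a median difference of -0.01. It is listed here because the raised share lies above that of the autosomes in data outside the comparison. The difference between the shares was not tested, since 1 pooled value per genotype allows no test over lines.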

How the results depend on the processing

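Of 115 values recomputed under alternatives, 82 stayed within 1.5 times a count or within the interval of a share or median. With 1 pooled value per genotype that interval is over peaks and not over lines, and it is wide for short lists. The 82 thus depends in part on list size and does not measure the spread between lines. The raised share of 2-fold peaks, 63.6%, was 61.5% after quantile normalization, 69.5% centred on the median, 65.3% after a lowess on level, 58.6% after centring within GC bins and 65.8% when over 3 counting SE were also required, an alternative added after the data were seen. A pseudocount of 1 read per M left 148 raised and 2 lowered peaks (98.7% raised), 131 and 1 of them among better occupied peaks. At 1.5-fold 22720 were raised and 22070 lowered (50.7%), and at 4-fold 561 and 76 (88.1%). Among better occupied peaks, the lowess left 176 lowered, GC centring 955 raised, and a filter on the control level 819 raised and 1137 lowered. The median difference was -0.03 after quantile normalization. The bottom 10% by level had -0.05 when ordered by MommeD43-GFP and 0.01 by the mean of null and control, against 0.59, and the top 10% 0.03 and 0.04, against 0.01. GC centring gave -0.08 for olfactory receptors, 0.02 for zinc finger genes, -0.01 for imprinted genes, 0.04 for NSC genes and 0.01 for neuronal markers, and, inside the intervals of these shorter lists, 0.25 for *Hox* clusters, -0.02 for keratins, 0.06 for oligodendrocyte and 0.08 for astrocyte markers, the last 2 with a change of sign. Keratins had -0.16 with no flank and ribosomal proteins -0.03 with 50 kb. The highest window fell to 0.40 after a shift of 500 kb. The cause was not tested. The control-level strata share the control's error with the difference, and a pseudocount damps weak peaks by construction. Every peak is at least 300 bp long, so that filter removed none, and division by length leaves each difference as it is. These alternatives could not move a value, yet they are counted among the 82.

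No paired analysis was possible because each genotype has 1 pooled column, and for the same reason no library was left out in turn. Depth limits weak peaks most.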

Other observations

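Promoters of antigen receptor segments, genes that are rearranged in lymphocytes, are described here beside all promoter peaks, whose median difference was -0.05 with 1.81% raised and 1.09% lowered. At 63 promoter peaks of T cell receptor V segments the median difference of null less control was 0.45, with 14 (22.2%) at least 2-fold higher and 0 lower. The peak at *Trav16* (chr14:53740951-53742150) stood at -0.77 in control, 1.24 in the null and 0.45 in MommeD43-GFP, and that at *Trbv2* at -3.66, -0.95 and -1.33. The lowest was *Trav1*, from -0.30 to -1.29. At 89 promoter peaks of immunoglobulin V segments the median was 0.18, with 12 (13.5%) higher and 5 (5.62%) lower. *Ighv11-2* went from 0.25 to 1.75 and *Ighv1-23* from -0.50 to -1.79. MommeD43-GFP less control, which shares the control libraries, had medians of 0.24 and 0.15 over the same peaks. Median GC contents were 46.7% and 47.3%, against 49.2% for all promoter peaks and 47.8% for all autosomal peaks. The segment peaks were also weaker and shorter. Their control medians were -0.50 and -0.92, against 0.44 for all promoter peaks, and their median lengths 750 and 600 bp, against 1200 bp. These segments were chosen after their values were seen, and their shares are a description.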
